A study of Mus musculus with 24 samples.

Results

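The transcription factors that set urothelial and squamous identity were followed as 10 genes, Trp63, Gata3, Gata6, Foxa1, Elf3, Grhl2, Grhl3, Klf4, Klf5 and Tfap2a, chosen by name from 53465 genes in the table. All 10 were found by their Ensembl identifiers. RNA of 24 tumors was sequenced, 3 from each of 8 BURP lines. A BURP line is a bladder tumor raised in a C57BL/6NTac mouse by the carcinogen BBN, given at 0.1% in drinking water from 8 weeks of age for up to 36 weeks, and then passaged under the skin of immune-competent hosts of the same strain and sex. The study sequenced tumors of passages between 2 and 5. Tumor names that start with P give the passage, and the other names hold none. The labels and the study place 6 lines in the basal/squamous (Ba/Sq) subtype: the male donors gave BURP-12BaSq, BURP-17BaSq and BURP-18BaSq, and the female donors BURP-24BaSq, BURP-25BaSq and BURP-21BaSq. BURP-19NE (male) is the NE-like line, and BURP-16SR (male) is the stroma-rich line. The study's classifier placed 1 of the 3 BURP-16SR tumors nearest the NE-like subtype and the others nearest the stroma-rich subtype. It was run on RNA levels of these same tumors, so RNA differences between the subtypes are not independent of the grouping. Every line descends from 1 donor tumor, no normal bladder was analysed here, and so the tests compare 3 tumors of a line with other lines and do not compare subtypes over donors.

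These factors bind DNA in the nucleus and work in layers. The p63 protein made from Trp63 holds the basal layer of stratified epithelia, and Tfap2a and Klf5 act with it in proliferating basal cells. Grainyhead-like factors Grhl2 and Grhl3 keep up junction and barrier genes, with Grhl3 and the ETS factor Elf3 acting late in urothelial differentiation and Klf4 late in squamous differentiation. Gata3 and the pioneer factor Foxa1 are the classic luminal factors of urothelium, whereas Gata6 is better known from endoderm and some stromal and smooth muscle cells.

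The promoters of 4 members are shown because 3 of them, Grhl3, Klf4 and Elf3, varied together over the Ba/Sq tumors, while Gata3 varied apart from them. RefSeq promoter entries of GRCm38.p6 were found for 6 of the 10 members (Gata3, Foxa1, Elf3, Grhl3, Klf4 and Tfap2a). The 250 bases before the annotated start are written 5′ to 3′ on the gene's own strand, the minus strand for all 4, with each CG dinucleotide in capitals. The windows lie at chr4:135573633-135573882 (Grhl3), chr1:135258473-135258722 (Elf3), chr4:55532476-55532725 (Klf4) and chr2:9878601-9878850 (Gata3). The starts are RefSeq's and can differ from the gene spans used for counting. The Gata3 window lies inside its counted span (chr2:9857078-9890034), and the Elf3 window overlaps the edge of its own.
Grhl3: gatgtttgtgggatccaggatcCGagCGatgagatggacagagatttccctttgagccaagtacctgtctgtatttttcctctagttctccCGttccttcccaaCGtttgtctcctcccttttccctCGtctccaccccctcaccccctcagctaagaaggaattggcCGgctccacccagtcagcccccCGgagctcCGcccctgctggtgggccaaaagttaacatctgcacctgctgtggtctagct
Elf3: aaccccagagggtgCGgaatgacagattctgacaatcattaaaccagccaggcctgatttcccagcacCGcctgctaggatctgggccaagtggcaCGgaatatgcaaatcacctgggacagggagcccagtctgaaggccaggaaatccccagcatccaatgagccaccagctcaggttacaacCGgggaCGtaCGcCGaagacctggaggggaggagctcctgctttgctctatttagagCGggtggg
Klf4: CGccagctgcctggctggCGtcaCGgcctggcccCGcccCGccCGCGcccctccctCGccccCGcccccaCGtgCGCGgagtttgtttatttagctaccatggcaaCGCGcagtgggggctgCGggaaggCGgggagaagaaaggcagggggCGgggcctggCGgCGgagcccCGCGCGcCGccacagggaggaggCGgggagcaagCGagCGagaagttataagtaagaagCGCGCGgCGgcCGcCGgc
Gata3: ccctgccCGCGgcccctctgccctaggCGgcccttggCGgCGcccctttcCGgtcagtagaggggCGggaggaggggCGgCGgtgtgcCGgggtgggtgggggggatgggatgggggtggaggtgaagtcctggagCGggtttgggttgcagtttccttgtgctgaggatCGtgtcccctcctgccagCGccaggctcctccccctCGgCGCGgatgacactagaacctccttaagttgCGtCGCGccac

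The Grhl3 and Elf3 windows held 8 CG dinucleotides each, more than 57.0% of the 32807 mouse promoter windows of the same length, whose median was 6. The Klf4 window held 32, more than 95.4% of all windows, and the Gata3 window held 19, more than 80.3%. Of the factor motifs searched on both strands, the grainyhead motif AACNGGTT, the GATA motif AGATAA and the AP-1 motif TGANTCA were in none of the 4 windows, and were in 1.78%, 9.99% and 6.75% of all windows. The KLF-type motif GGGNGNGG, which can overlap itself, matched at 2 positions for Grhl3, 1 for Elf3, 9 for Klf4 and 3 for Gata3, and 45.9% of all windows held it. The forkhead motif TGTTTAC was in 3.16% of all windows and, among the 6 members used, in that of Foxa1. A match is a run of letters and not a measured site, since the series holds no binding, methylation or chromatin data.

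Levels are CPM, counts scaled to a common library size by the trimmed mean of M-values (TMM), and values over groups are means ± SD of tumors. Total counts ran from 9295747 to 25370356 a tumor, so that 3 counts, taken as the floor of detection, were 0.106 to 0.412 CPM in 23 tumors. The BURP-25BaSq tumor C102-M30 was the exception at 1.18 CPM, because 61.9% of its counts lay on the ribosomal RNA gene CT010467.1. The label of another BURP-25BaSq tumor, C102-M1, is in doubt, since over 21383 genes its log2 CPM correlated at r = 0.965 to 0.974 with the tumors of BURP-21BaSq and at 0.883 to 0.904 with the other tumors of its own line, and the values it moved are given with and without it. The 6 general epithelial markers (Epcam, Cdh1, Krt8, Krt18, Krt5 and Krt14) summed to between 6195 and 12170 CPM in the Ba/Sq tumors, to 211.9 to 487.9 in BURP-16SR and to 141.3 to 213.2 in BURP-19NE, where Epcam had no count. Genes on the other strand overlap the span of 6 members, so that reads of both could be mixed if strand was not used in counting. In the Ba/Sq tumors the most counted of these was Gm16136, opposite Grhl2, at 21.8 CPM, followed by Gm47061 opposite Tfap2a at 8.89, Gm26642 opposite Elf3 at 4.71 and 4930412O13Rik opposite Gata3 at 1.25 CPM, while those opposite Trp63 and Gata6 were under 0.1 CPM. In bulk tumor RNA, fewer cells of a type and less RNA per cell cannot be told apart.

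In the 18 Ba/Sq tumors all members were transcribed. Mean CPM was highest for Trp63 (389.1) and Klf5 (387.2), followed by Klf4 (223.2) and Elf3 (148.1). The gene length used next merges the annotated exons of all isoforms, so genes with many isoforms can rank lower by it. Per kilobase of exon, the mean level was highest for Klf5 at 74.4 CPM and Klf4 at 73.2 CPM, followed by Elf3 at 66.8, Trp63 at 46.4 and Grhl3 at 24.03. Foxa1 at 14.7, Tfap2a at 13.7, Gata3 at 12.7 and Grhl2 at 11.2 CPM per kilobase lay close together, and Gata6 stood last at 0.492. The lines did not share the top of this order, since Elf3 was first in BURP-17BaSq (123.4) and BURP-21BaSq (90.4), Klf4 in BURP-24BaSq (113.8) and BURP-25BaSq (81.3), and Klf5 in BURP-12BaSq (73.4) and BURP-18BaSq (81.5), where Trp63 came next (57.3 and 49.9). Without C102-M1, Klf5 (81.5) was first in BURP-25BaSq and Klf4 (48.0) the third. In BURP-19NE the same scale put Klf5 first (62.1) and Gata3 next (29.2), and in BURP-16SR Klf4 (45.2) came before Klf5 (24.6). The plot of levels by line shows that 4 members, Trp63, Elf3, Grhl2 and Grhl3, were at or near 0 in both of these lines.

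**Figure D1:**
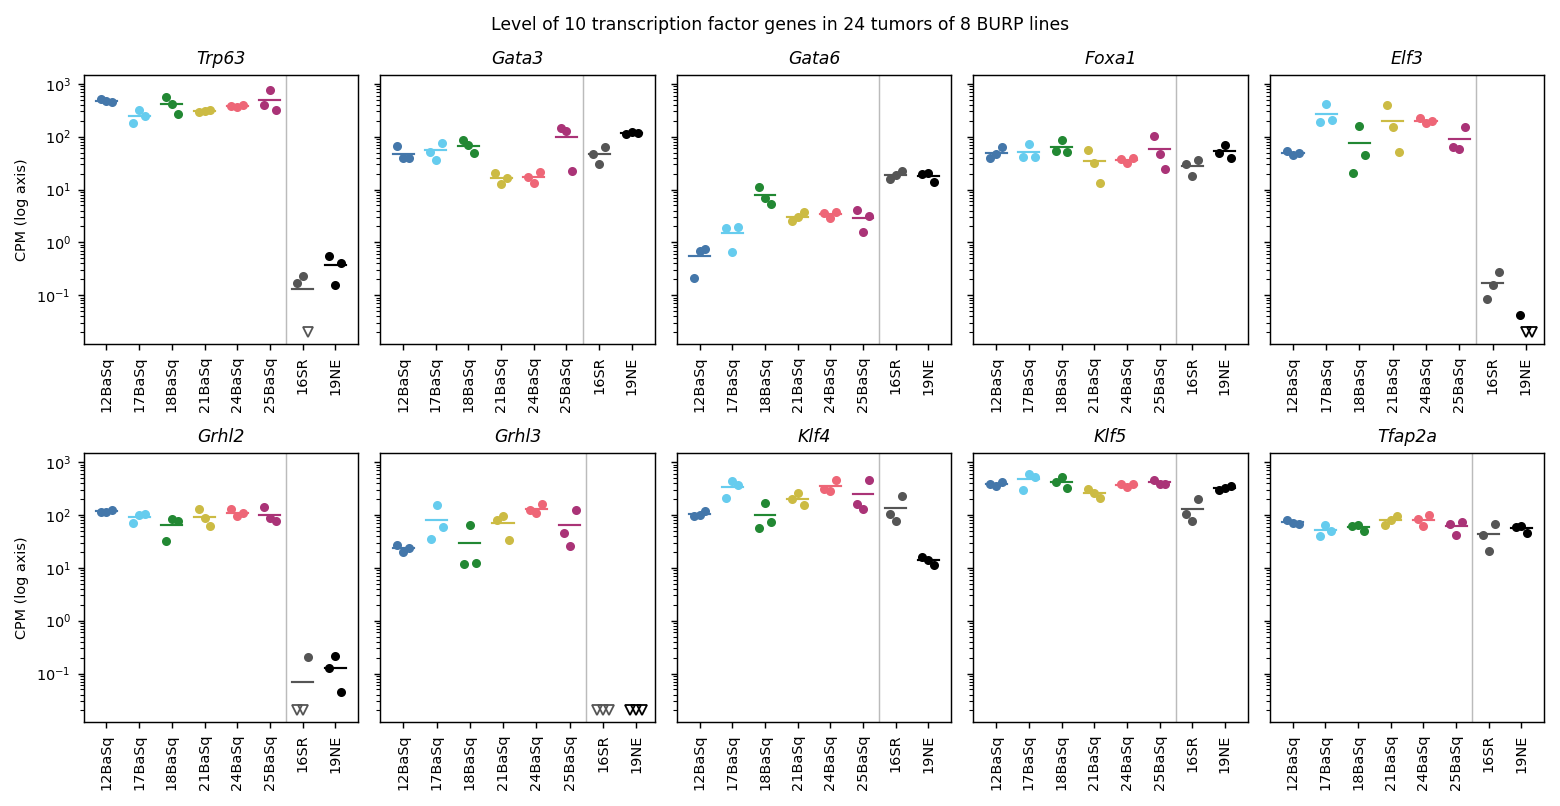
CPM (log axis) of each of the 10 genes in 24 tumors, by line; each point is a tumor, the bar is the mean of 3 tumors (left out where it falls under the drawn range), and open triangles at the foot are tumors with 0 counts, drawn at an arbitrary height. Trp63, Elf3, Grhl2 and Grhl3 drop by orders of magnitude to the right of the grey line, where BURP-16SR and BURP-19NE stand, while Gata6 is higher there.

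BURP-19NE was compared with the Ba/Sq lines to ask which lineage factors the NE-like line had kept as RNA. In edgeR's quasi-likelihood test (adjusted p under 0.05 and a change over 2-fold), 24.3% of 20995 genes tested were called, 15% as lower and 9.33% as higher. All 10 members passed the filter on low counts, which asks for at least 0.533 CPM in 3 tumors, but Trp63, Elf3, Grhl2 and Grhl3 passed it through the Ba/Sq tumors alone. Since their entry rested on the group where they are high, they are described by their levels, with no p. Of the other 6 members, which could have passed through either group, 1 was called lower and 1 higher, beside 8.61% and 10.3% of the 15803 genes that passed in that way.

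Trp63 (chr16:25683763-25892102, plus strand) had a lowest value of 178.4, a median of 371.2 and a highest of 770.9 CPM in the Ba/Sq tumors. In the BURP-19NE tumors C80-M1, C80-M3 and C80-M30 it stood at 0.547, 0.158 and 0.408 CPM, which is 25 counts in the 3 libraries. No BURP-19NE tumor came near the Ba/Sq range. The ratio of means was 1009-fold (683.4 to 1559, 95% Poisson interval of the 25 counts, counting error only). Gene-level counts do not separate the long and the short p63 isoforms. RNA need not follow protein. By staining, the study described high TP63 in BURP-19NE and TP63 in some cells of BURP-16SR. Among the Ba/Sq lines it found TP63 in BURP-12BaSq, BURP-18BaSq, BURP-21BaSq and BURP-25BaSq, but not in BURP-17BaSq or BURP-24BaSq.

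The grainyhead factors and Elf3 were near 0 as well. Grhl2 (chr15:37233036-37363569, plus strand) ranged from 31.84 to 143.1 CPM in the Ba/Sq tumors with a median of 97.89, and had 3, 4 and 1 counts in the BURP-19NE tumors, a 781-fold lower mean (396.4 to 1809). Grhl3 (chr4:135541888-135573630, minus strand) ranged from 11.8 to 159.8 CPM with a median of 52.63 and had no count in any BURP-19NE tumor. Against the floor of 3 counts over the line, its mean was at least 1448-fold lower. Elf3 (chr1:135253575-135258568, minus strand) ranged from 20.17 to 420.9 CPM with a median of 151.6 and had 1 count in the 3 BURP-19NE libraries. That count gives a ratio of 9598-fold with an interval of 1723 to 379100, so the size of this fall is not known beyond the lower end.

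Klf4 (chr4:55527143-55532466, minus strand), a barrier factor of squamous cells, fell but was still counted in every tumor. Its levels in BURP-19NE were 16.19, 14.27 and 11.38 CPM, below every Ba/Sq tumor (56.81 to 451.2, median 184), where 17.8% of all genes tested did not overlap. The log2 fold change was -3.98 ± 0.67 (SE, edgeR adjusted p = 0.000101). Klf5 (chr14:99298691-99315036, plus strand), its relative, stood at 292.2, 319 and 356.9 CPM in BURP-19NE, inside the Ba/Sq range of 205.7 to 596.1, and did not pass the test (log2 fold change -0.25 ± 0.22, adjusted p = 0.405). The 95% interval of that difference, a normal interval from the SE as in all intervals of log2 differences here, ran from -0.68 to 0.18.

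Gata6 (chromosome 18) rose, whereas the luminal factors Gata3 and Foxa1 did not pass. Gata6 stood at 19.39, 20.96 and 13.83 CPM in BURP-19NE against a lowest value of 0.208, a median of 2.94 and a highest of 10.98 CPM in the Ba/Sq tumors, with no overlap (log2 fold change 2.51 ± 0.57, edgeR adjusted p = 0.00184). Gata3 (chr2:9857078-9890034, minus strand) was even among the BURP-19NE tumors at 110.5, 120.5 and 117.3 CPM, a mean of 116.1 ± 5.09 against 50.5 ± 39.0 (n = 18). The Ba/Sq tumors spread from 12.79 to 148.2 CPM, and only 2 of them, both BURP-25BaSq, reached above the NE-like line. The difference did not pass (log2 fold change 1.21 ± 0.56, adjusted p = 0.102), but it did without the line BURP-25BaSq (1.53, adjusted p = 0.0149), without its tumor C102-M30 (1.35, adjusted p = 0.0493), or with all 24 tumors in 1 fit (1.48, adjusted p = 0.000749). It did not pass in the other 15 of 18 alternatives, the fit without C102-M1 among them. Their adjusted p reached 0.252, in an edgeR fit with 1 tumor or line left out. Foxa1 (chr12:57540628-57546916, minus strand) measured 49.63, 69.21 and 40 CPM in BURP-19NE and from 13.41 to 101.9 CPM in the Ba/Sq tumors, and the interval of its log2 difference was -0.57 to 0.83. Tfap2a (chr13:40715302-40738376, minus strand) measured 58.68, 61.62 and 46.53 CPM against 39.89 to 99.98 CPM, with an interval of -0.68 to 0.15.

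**Figure D2:**
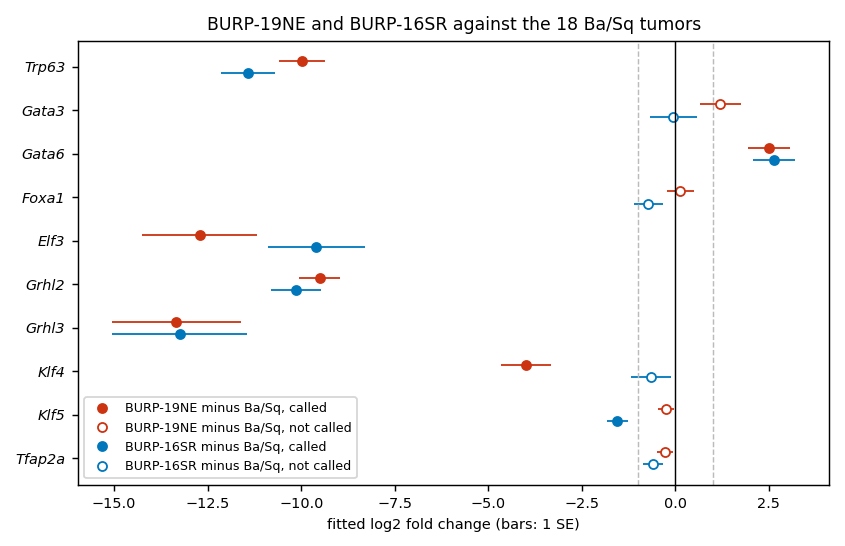
Fitted log2 fold change of each gene in BURP-19NE (red) and BURP-16SR (blue) against the 18 Ba/Sq tumors; bars are 1 SE, filled points were called and open ones were not, and dashed lines mark a 2-fold change. Both comparisons share the Ba/Sq tumors; the changes of Grhl3, Elf3, Trp63 and Grhl2 rest on 0 to 13 counts a tumor in the single line, so their fitted size is uncertain and they entered the test through the Ba/Sq tumors alone.

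The stroma-rich line BURP-16SR was set against the same 18 Ba/Sq tumors, so both comparisons rest on the same controls. Here 19.2% of 21028 genes tested were called, 8.62% as lower and 10.5% as higher. Trp63, Grhl2, Grhl3 and Elf3 were near 0 in this line too and again had passed the filter through the Ba/Sq tumors alone. Of the other 6 members 1 was called lower and 1 higher, beside 5.73% and 11.1% of the 15484 genes that could have passed through either group. Trp63 had 2, 3 and 0 counts in tumors C73-M10, C74-MNT and P5, a 3040-fold lower mean (1302 to 9361). Elf3 had 1, 2 and 4 counts (826.3-fold lower, 401 to 2055), and Grhl2 had 0, 0 and 3 (1255-fold, 429.4 to 6086). Grhl3 had no count in any tumor and was at least 872.7-fold lower.

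The KLF genes gave the other pattern in BURP-16SR. Klf5 fell, at 102.4, 77.16 and 204.4 CPM, all below the lowest Ba/Sq tumor at 205.7 (log2 fold change -1.55 ± 0.29, edgeR adjusted p = 0.000505), although tumor P5 missed that tumor narrowly. Klf4 measured 103.3, 77.7 and 232.4 CPM within the Ba/Sq range and did not pass (log2 fold change -0.65 ± 0.54, adjusted p = 0.407, interval -1.72 to 0.42). Gata6 rose to 15.67, 19.17 and 22.5 CPM, above every Ba/Sq tumor (2.64 ± 0.57, adjusted p = 0.0017); 11.2% of all genes tested did not overlap in this comparison. Gata3 measured 46.24, 30.69 and 63.93 CPM against a Ba/Sq median of 39.22 (adjusted p = 0.963, interval -1.28 to 1.17). Foxa1 at 30.83, 18.17 and 36.4 CPM (log2 fold change -0.72, adjusted p = 0.192) and Tfap2a at 41.41, 20.64 and 66.58 CPM (-0.60, adjusted p = 0.11) did not pass. Without tumor P5, Tfap2a did pass, with a log2 fold change of -1.13 and an adjusted p of 0.0171.

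Fibroblast, endothelial and smooth muscle markers moved with BURP-16SR. Of 8 fibroblast markers 5 were called higher than in the Ba/Sq tumors, as were 5 of 8 endothelial and 3 of 6 smooth muscle markers, where 10.5% of all genes were. The macrophage and T cell lists had 1 of 8 markers each called higher, near the share of all genes. The summed fibroblast markers were 7545, 20110 and 597.1 CPM in C73-M10, C74-MNT and P5, within a Ba/Sq range of 212.1 to 9836 for 2 of the 3, and the macrophage sums were 621.7, 467.6 and 90.55 CPM. Tumor P5, with the lowest fibroblast, macrophage and smooth muscle sums of the line, had the line's highest Gata3, Gata6, Foxa1, Klf4, Klf5 and Tfap2a levels. It is the only tumor of BURP-16SR whose label gives a passage, passage 5. The general epithelial sum was also highest in P5, at 487.9 CPM against 372.8 in C73-M10 and 211.9 in C74-MNT. The endothelial sums were 261.9, 387.4 and 364.7 CPM in BURP-16SR and 58.41 to 78.49 in BURP-19NE, against 32.32 to 439.9 in the Ba/Sq tumors. In BURP-19NE no fibroblast or macrophage marker was called higher, 5 of 6 skeletal muscle markers were, and their sum was 556.1 CPM in tumor C80-M1 against 1.90 and 5.08 in the others. The part of these cell types in the levels of the members was not tested.

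The direct comparison of BURP-16SR with BURP-19NE asked where the lines outside the Ba/Sq cluster part from each other. Only 6 members had enough counts to be tested, and 3 were called (1 higher and 2 lower in BURP-16SR), where 23.6% of 17556 genes were, 14.8% as higher and 8.86% as lower. Klf4 was higher in BURP-16SR (137.8 ± 82.9 against 13.95 ± 2.42 CPM; log2 fold change 3.38 ± 0.42, edgeR adjusted p = 0.00242). Gata3 was lower in BURP-16SR (46.95 ± 16.6 against 116.1 ± 5.09 CPM; -1.22 ± 0.24, adjusted p = 0.011). Klf5 was lower as well (128.0 ± 67.4 against 322.7 ± 32.5 CPM; -1.26 ± 0.34, adjusted p = 0.0292). The call of Klf5 was lost on leaving out any 1 of BURP-16SR C73-M10 (-1.16, adjusted p = 0.1) or BURP-19NE C80-M1, C80-M3 and C80-M30 (-1.34, -1.28 and -1.19, adjusted p = 0.073, 0.0823 and 0.0879). Foxa1 did not overlap between the lines, as 51.7% of all genes tested did not, but it missed the threshold (-0.81 ± 0.30, adjusted p = 0.0793). It passed without BURP-16SR P5 (-1.03, adjusted p = 0.0459) and with total counts without ribosomal RNA genes (-1.12, adjusted p = 0.028). Gata6 differed by 0.17 ± 0.22 (interval -0.25 to 0.59) and Tfap2a by -0.30 ± 0.38 (interval -1.04 to 0.44) on the log2 scale.

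Lists of genes that stand around these factors were counted in the same fits. Many of their genes passed the filter through the Ba/Sq tumors alone, as the 4 members had, and only those that could have passed through either group are counted here, beside all such genes (8.61% called lower and a median log2 fold change of 0.05 in BURP-19NE, 5.73% and 0.05 in BURP-16SR). Of 28 relatives of the members (paralogs), 24 were tested, and 4 of the 18 counted were called lower and none higher in BURP-19NE (median -0.24). They include Ehf, the close relative of Elf3 (1.61 against 439.2 CPM, edgeR adjusted p = 9.2e-07). Trp73 (0.0140 against 25.4 CPM) and Elf5 (0.0291 against 24.1 CPM) were near 0 in BURP-19NE, but are not in this count. Tfap2c had no count in either line and 12.3 CPM in the Ba/Sq tumors. In BURP-16SR, 2 of the 17 counted paralogs were called lower and 3 higher (median -0.36), where 11.1% of such genes were called higher. The 3, named after their values were seen, were the forkhead factor Foxa2 (34.02 ± 24.5 against 1.25 ± 2.26 CPM, adjusted p = 0.0044), Klf2, a factor of endothelium and lymphocytes (37.8 against 6.30 CPM, adjusted p = 0.00447), and Klf9 (68.5 against 30.7 CPM, adjusted p = 0.00636).

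Of 20 basal and squamous effector genes, 8 had passed the filter through the Ba/Sq tumors alone in the BURP-19NE comparison and 9 in that of BURP-16SR. Of the rest, 9 of 12 were called lower and none higher in BURP-19NE (median -4.25), and 9 of 11 lower and 1 higher in BURP-16SR (median -5.05). The higher gene was Cd44, a hyaluronan receptor (1145 against 537.9 CPM, adjusted p = 0.000306). The basal keratin Krt5, not in these counts, was at 4120 CPM in the Ba/Sq tumors, 0.0140 in BURP-19NE and 0.113 in BURP-16SR. Of 20 epithelial junction and barrier genes, 15 and 12 had passed through the Ba/Sq tumors alone, and of the rest 3 of 5 were called lower in BURP-19NE (median -4.01) and 5 of 8 in BURP-16SR (median -2.94). Among those left out of the count, the splicing factor Esrp1 was at 173.3 CPM in the Ba/Sq tumors and had 0 and 0.0282 CPM in the 2 lines. Of 20 urothelial differentiation genes, 17 were tested, 9 and 5 of them through the Ba/Sq tumors alone, and of the rest 3 of 8 and 3 of 12 were called lower (medians -2.02 and -0.08). Psca, a surface antigen of urothelium and not in these counts, was at 587 CPM against 0.0176 in BURP-19NE and 0.0233 in BURP-16SR. The simple keratin Krt8 was at 49.4 CPM in the Ba/Sq tumors, 0.0907 in BURP-19NE and 122.5 in BURP-16SR. The study assigned the subtypes from the same RNA, and the lists were chosen with earlier results of these data known. The counts of these lists therefore describe the groups and do not test them.

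Among the 6 Ba/Sq lines, the members differed in how far the line fixed their level. In 1 F test over the lines, 5 members passed an adjusted p under 0.05, as did 50.5% of 20523 genes tested, so the share of members was that of all genes. Gata6 (F = 13.8, edgeR adjusted p = 0.00066), Gata3 (8.40, adjusted p = 0.00365, or 26.9 and 6.03e-05 without C102-M1) and Klf4 (6.01, adjusted p = 0.0108) kept the call whichever single tumor was left out. Without C102-M1 the adjusted p was 0.000679 for Gata6, 0.00206 for Klf4, 0.03 for Elf3 and 0.0232 for Grhl3. Elf3 (3.70, adjusted p = 0.0448) and Grhl3 (3.59, adjusted p = 0.0486) lost it in 13 and 12 of 18 such fits, where their adjusted p reached 0.0977 and 0.107. Klf5 (adjusted p = 0.0649), Trp63 (0.0857), Tfap2a (0.103), Grhl2 (0.231) and Foxa1 (0.405) did not pass. Trp63 passed without C102-M1 (0.0266) or BURP-18BaSq P4 (0.0457), and Klf5 passed without BURP-17BaSq C152-M1 (0.00904) or BURP-18BaSq P4 (0.0408). DESeq2 called 7 members, with Trp63 (adjusted p = 0.0449) and Klf5 (0.0186) besides the 5. Klf5 also passed with at least 10 counts in every tumor (0.0455), a filter that drops Gata6, or with ribosomal RNA genes removed (0.0465). Trp63 also passed with total counts without ribosomal RNA genes (0.0357), where Grhl3 did not (0.0538), and Tfap2a passed under the filter of 10 counts (0.0425) and with these total counts (0.0343).

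Gata6 was the least abundant member and spread the most, 12.7-fold between the highest and the lowest line. This fold is taken from line means of log2 CPM with a prior count of 2, which shrinks differences at low counts. It was lowest in BURP-12BaSq, at 0.208, 0.679 and 0.739 CPM or 5, 16 and 20 counts, and highest in BURP-18BaSq, at 10.98, 7.03 and 5.29 CPM. Against the other 15 Ba/Sq tumors, BURP-12BaSq was lower by a log2 fold change of -2.78 ± 0.68 (edgeR adjusted p = 0.019; 4.59% of genes called), although BURP-17BaSq C165-M30 at 0.672 CPM overlapped it. BURP-18BaSq was higher by 1.75 ± 0.53 (adjusted p = 0.0312; 10.1% of genes called) without overlap, as for 7.83% of genes. The call of BURP-12BaSq was lost without any 1 of its own tumors C41-M3, C47-M30 and C47-M3 (log2 fold change -2.39, -2.96 and -3.06, adjusted p = 0.116, 0.0978 and 0.0909). That of BURP-18BaSq was lost without C148-M3 or C149-M3 (1.41 and 1.80, adjusted p = 0.234 and 0.0855) and held without P4 (1.95, adjusted p = 0.04).

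Gata3 split the female lines. It stood at 20.36, 12.79 and 16.34 CPM in BURP-21BaSq and at 17.16, 13.03 and 21.03 CPM in BURP-24BaSq, below every tumor of the 3 male lines, which ran from 36.1 to 85.08 CPM. In BURP-25BaSq it was 148.2 and 125.6 CPM in C102-M3 and C102-M30, and 22.37 CPM in the tumor of doubtful label, C102-M1. The mean of this line was 98.7 ± 67.1 CPM with C102-M1 and 136.9 ± 15.97 (n = 2) without it. None of these lines passed the test against the other 15 tumors: the log2 fold change was -1.82 (adjusted p = 0.335) for BURP-21BaSq, -1.77 (0.161) for BURP-24BaSq and 1.35 (0.419) for BURP-25BaSq, or 1.83 (0.102) without C102-M1. The test keeps the spread between the other lines in its error. With 1 coefficient per line the 3 adjusted p were 0.0493, 0.0256 and 0.0231. Among the Ba/Sq lines, the study's staining found GATA3 protein in BURP-12BaSq, BURP-17BaSq and BURP-24BaSq, which is not the order of the RNA. It did not detect GATA3 in BURP-16SR and described it as heterogeneous in BURP-19NE. FOXA1 protein was high in BURP-16SR and BURP-19NE and was found in all Ba/Sq lines but BURP-18BaSq and BURP-21BaSq. Mean Foxa1 RNA was 63.9 CPM in BURP-18BaSq and 28.5 CPM in BURP-16SR.

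By edgeR no member was called for BURP-17BaSq, BURP-25BaSq, BURP-21BaSq or BURP-24BaSq, where 1.07%, 0.273%, 0.0195% and 1.65% of genes were called. At an unadjusted p under 0.05 there were 2, 1, 2 and 2 members, and DESeq2 called 0, 0, 0 and 1 (Gata3). For BURP-12BaSq and BURP-18BaSq, Gata6 was the single member called. Klf4 in BURP-12BaSq (94.88, 99.99 and 119.4 CPM) and BURP-18BaSq (56.81, 167.8 and 74.71 CPM) was low beside 285.2 to 450.3 CPM in BURP-24BaSq, yet its adjusted p against the other 15 tumors was 0.138 and 0.0819.

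**Figure D3:**
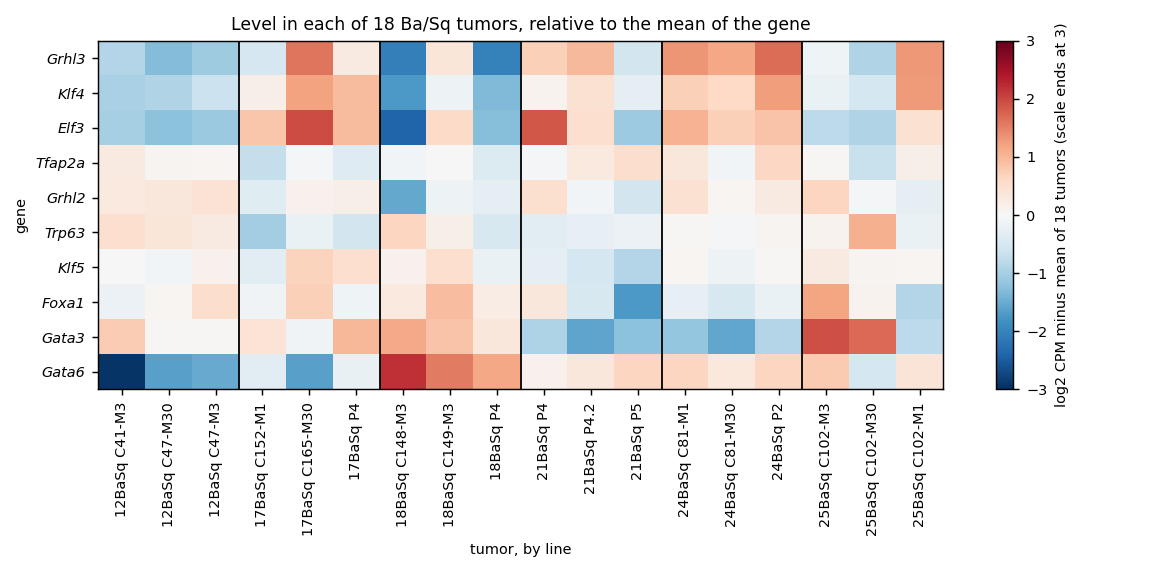
Log2 CPM of each gene (rows) in the 18 Ba/Sq tumors (columns, by line), minus the gene's mean over these tumors; red is higher and blue is lower. Grhl3, Klf4 and Elf3 in the top rows share their pattern, Gata3 is low in BURP-21BaSq and BURP-24BaSq and in C102-M1, and Gata6 is lowest in BURP-12BaSq and highest in BURP-18BaSq.

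Over the 18 Ba/Sq tumors, the levels of Grhl3, Klf4 and Elf3 went together. Pearson's r of log2 CPM was 0.93 for Grhl3 with Klf4, 0.86 for Grhl3 with Elf3 and 0.85 for Elf3 with Klf4, and within lines, after each line's mean was taken off, it was 0.92, 0.84 and 0.73. Without C102-M1 the values over 17 tumors were 0.93, 0.87 and 0.88. BURP-18BaSq shows the pattern inside 1 line: its tumor C149-M3 held 64.21 CPM of Grhl3, 167.8 of Klf4 and 161.5 of Elf3, while C148-M3 held 11.8, 56.81 and 20.17. In BURP-17BaSq, tumor C165-M30 was highest for all 3 genes, at 151.2, 434 and 420.9 CPM. Some cell type sums moved along in these lines and others did not. C149-M3 had the highest general epithelial sum of its line (12170 CPM against 7492 and 6878) and the lowest macrophage sum (25.97 against 164.7 and 469.9), and C165-M30 had the lowest fibroblast sum (327.6 against 9836 and 3040) and macrophage sum (65.4 against 741 and 250.8) of BURP-17BaSq. The lowest fibroblast sum of BURP-18BaSq was instead in C148-M3 (448.7 CPM, against 620.2 in C149-M3). The highest general epithelial sum of BURP-17BaSq was in P4 (9567 CPM, against 9379 in C165-M30). The part of these cell types in the shared pattern was not tested. The pattern did not extend to every line outside, since BURP-16SR kept 77.7 to 232.4 CPM of Klf4 with no count of Grhl3. The next pair was Foxa1 with Klf5 (0.69), and Gata3 with Foxa1 came to 0.62. Gata3 ran against Grhl3 and Tfap2a (-0.56 for both). These are descriptions over 45 pairs of genes in 6 lines, and the tumors of a line share their origin.

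**Figure D4:**
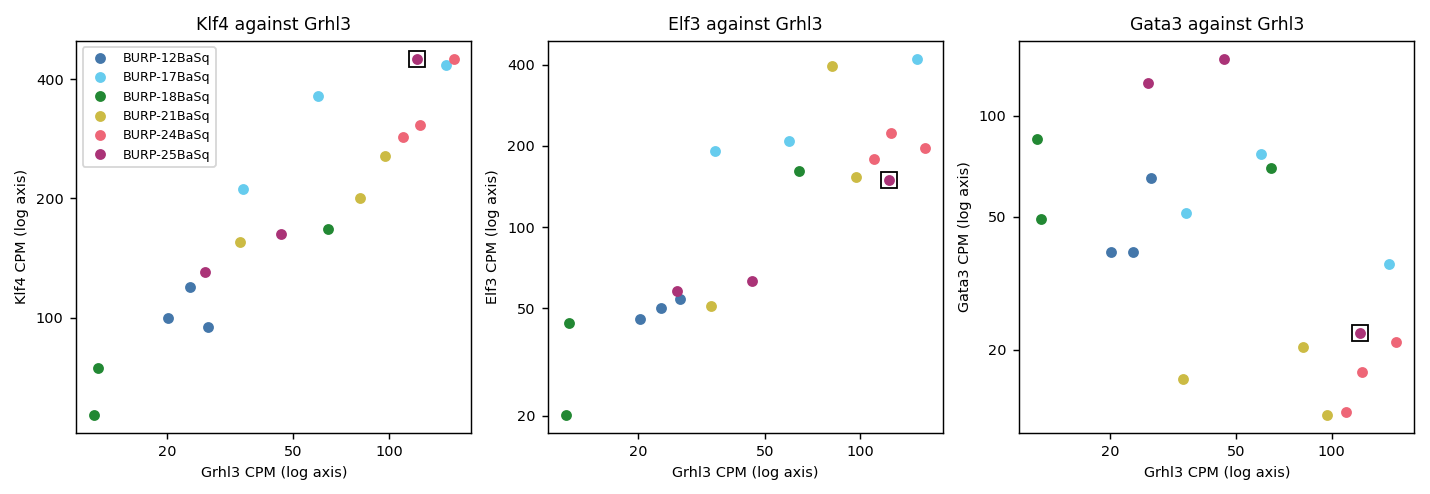
Klf4, Elf3 and Gata3 (vertical, CPM, log axis) against Grhl3 (horizontal, CPM, log axis) in the 18 Ba/Sq tumors, coloured by line; the square marks C102-M1. Klf4 and Elf3 climb with Grhl3 both between and within lines, and Gata3 does not.

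The genes most like each member over these tumors, by Pearson's r of log2 CPM, were taken from all genes that passed the filter. For Grhl3 they were Sprr1a, a protein of the cornified envelope (0.96), Cysrt1 (0.96) and the polarity gene Crb3 (0.95). For Elf3 they were the protease Prss27 (0.95), AI661453 (0.95) and the protease inhibitor Spint1 (0.94), and for Klf4 they were Cnksr1 (0.94), Grhl3 (0.93) and Lgalsl (0.93). Gata3 was most like 4930412O13Rik (0.90), which lies inside the span of Gata3 on the other strand. It was followed by Gm15947 (0.89) and Gsr, glutathione reductase (0.88). Foxa1 had Edrf1 (0.92), Zfp646 (0.89) and Bcl7a (0.89), and Grhl2 had Sorl1 (0.92), Tst (0.91) and Galnt18 (0.89). Gata6 had Iqce (0.89), Gtf2ird2 (0.88) and Ldlrad4 (0.88), and Klf5 had Map7 (0.87), Utp6 (0.83) and Arl2bp (0.81). Trp63 had Erich1 (0.85), Fam162a (0.85) and Reps1 (0.84), and Tfap2a had Foxe1 (0.83), Tdh (0.83) and Ptprf (0.82). Leaving out C102-M1 moved none of these values below 0.82. The genes were picked for the highest r in these same tumors, so high values follow from the choice and this does not check them. Spearman's rho was lower for some pairs, down to 0.62 for Tfap2a with Ptprf.

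The lines from male mice were compared with those from female mice, 9 Ba/Sq tumors each. No member was called by edgeR or by DESeq2, where 2.31% of 17922 genes were called by edgeR, and 1 member, Grhl3, had an unadjusted p under 0.05. Grhl3 measured 44.95 ± 44.1 CPM in the male and 89.12 ± 45.9 CPM in the female lines, a log2 fold change of -0.99 ± 0.46 male minus female (edgeR adjusted p = 0.205). Klf4 measured 180.2 ± 133.6 and 266.2 ± 120.5 CPM (-0.57 ± 0.37, adjusted p = 0.375). Without C102-M1 the log2 fold changes were -0.93 (adjusted p = 0.281) and -0.44 (adjusted p = 0.54). These comparisons rest on single lines. Without BURP-17BaSq, whose Grhl3 and Klf4 were high, both passed (-1.75 and -1.38, adjusted p = 0.0219 and 0.0113). Without BURP-25BaSq, Gata3 passed as higher in the male lines (1.78, adjusted p = 0.00135), and without BURP-18BaSq, Gata6 passed as lower (-1.67, adjusted p = 0.0309). With counts summed per line, 3 lines against 3, no gene passed at all.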

How the data were processed

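RNA of 24 tumors, 3 from each of 8 lines, was measured by ribosomal RNA-depleted, strand-preserving sequencing. The table holds estimated counts per gene, deposited by the authors, who aligned reads with STAR 2.6.0a and quantified them with RSEM 1.3.1 (CASAVA 1.8.2 for base calls) on GRCm38. Whether counting used strand is not given in the sources used here. The 12.451% of values that were not whole were rounded. Symbols, positions and exon lengths came from a GRCm38 GENCODE annotation that matched 99.8% of 53465 gene IDs. Total counts had a median of 17693198, and 3 counts were taken as the floor.

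Genes were filtered with filterByExpr, scaled by TMM and tested with edgeR 4.0.16 (quasi-likelihood, R 4.3.3), with Benjamini-Hochberg adjustment over all genes tested. A gene was called at an adjusted p under 0.05 and a change over 2-fold, or at the adjusted p alone for the F test among 6 lines. The split of genes by the group that carried them through the filter was added after the values were seen. DESeq2 1.42.0 was an alternative. On simulated data with 200 genes changed 4-fold, edgeR found 100%, 93.5%, 99.5%, 97.5% and 100% of them, and 2.91%, 2.6%, 7.87%, 1.52% and 1.48% of its calls were false, for BURP-19NE against the Ba/Sq lines, BURP-16SR against BURP-19NE, BURP-12BaSq against the other Ba/Sq lines, the 6 lines and the sexes. For DESeq2, 7.83%, 10.9%, 10.4%, 23.7% and 1.48% of calls were false. The simulated tumors were drawn independently, with the same dispersion for every gene. Apart from the changed genes, which were taken above a low mean level, the simulated lines did not differ. These rates therefore do not cover the spread between lines in the real tumors. Log2 CPM used a prior count of 2. Lines came from the labels, and subtype and sex of a line from the study. The tumors of a line share 1 donor, so p-values measure the spread between tumors.

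The members and gene lists were chosen with earlier results of these data known. All members were named, with at most the 4 called genes of the largest change per other list and the 3 genes most like each member. Cd44, Foxa2, Klf2 and Klf9 were named outside that rule, after their values were seen. Promoter sequences are RefSeq's for GRCm38.p6. Trp63, Grhl2 and Klf5 had no entry, and entries on chromosome 18, where Gata6 lies, were left out.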

Additional observations from a re-analysis of the deposited data

Results flagged for a closer look

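Among the 9 Ba/Sq tumors of each sex, 3 of 20 sets of values held a tumor that stood far from the others by Dixon's test (gap over range of log2 CPM above 0.493), where chance gives about 1 in 20. Trp63 was 770.9 CPM in BURP-25BaSq C102-M30, and the nearest tumor from a female line had 396.3 CPM (gap over range 0.697 on log2 CPM and 0.79 on CPM). Gata6 was 1.575 CPM, or 4 counts, in the same tumor, against 2.568 CPM in the nearest (0.513, or 0.402 on CPM). In that library 61.9% of counts lay on CT010467.1, and its part in both values was not tested. Grhl2 was 31.84 CPM in BURP-18BaSq C148-M3, against 71.55 CPM in the nearest tumor from a male line (0.593, or 0.428 on CPM). On CPM, the values of Gata6 and Grhl2 would thus not stand apart by this limit.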

How the results depend on the processing

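Of 782 alternative values with a test, 704 kept their direction and side of the threshold, 37 lost the threshold, 24 gained it and 17 changed sign. The calls of Klf4 in BURP-19NE and of Klf5 in BURP-16SR held under all 18 alternatives, and that of Gata6 in both lines under the 17 that tested it. Trp63, Elf3, Grhl2 and Grhl3 entered the test through the Ba/Sq tumors alone, so their calls are no measure of stability, and the filter of 10 counts in every tumor dropped them. The 704 nevertheless include all 17 alternatives of each of these genes in each line, so that total overstates stability. No paired analysis was possible because the replicate numbers only name tumors within a line.

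Most gene counts are given as percents of the genes tested, a measure chosen after the values were seen. In the fits reported above these were 24.3% (BURP-19NE), 19.2% (BURP-16SR), 23.6% (BURP-16SR against BURP-19NE), 4.59% (BURP-12BaSq), 1.07% (BURP-17BaSq), 10.1% (BURP-18BaSq), 0.0195% (BURP-21BaSq), 1.65% (BURP-24BaSq), 0.273% (BURP-25BaSq), 50.5% (among the 6 lines) and 2.31% (sexes). Requiring at least 10 counts in every tumor removed the genes near 0, and left 1 member each and 2001 and 1594 genes called for BURP-19NE and BURP-16SR (6 members each and 5108 and 4029 genes otherwise). It left 0 members for BURP-12BaSq and BURP-18BaSq, 57 higher and 45 lower genes for BURP-17BaSq (156 and 64 otherwise), and 958, 2, 12 and 191 genes for BURP-18BaSq, BURP-21BaSq, BURP-25BaSq (0.108%) and the sexes (2065, 4, 56 and 414 otherwise). DESeq2 called 4, 2 and 1 members for BURP-12BaSq, BURP-18BaSq and BURP-24BaSq, and 10.6%, 2.92%, 1.75%, 3.59%, 0.721% and 4.29% of genes for BURP-12BaSq, BURP-17BaSq, BURP-21BaSq, BURP-24BaSq, BURP-25BaSq and the sexes. With 1 coefficient per line, 2, 2, 1, 2 and 1 members were called for BURP-12BaSq, BURP-18BaSq, BURP-21BaSq, BURP-24BaSq and BURP-25BaSq, and 11.1%, 6.18%, 15.5%, 2.86%, 7.79% and 2.59% of genes for the 6 lines in order of number. With no filter BURP-18BaSq had 0 members called, and the genes called were 14.6% (BURP-19NE), 12.5% (BURP-16SR), 14.7% (BURP-16SR against BURP-19NE), 2.14% (BURP-12BaSq), 5.91% (BURP-18BaSq), 0.0584% (BURP-21BaSq), 1.02% (BURP-24BaSq), 26.3% (among the 6 lines) and 1.43% (sexes). Total counts without ribosomal RNA genes, added after seeing the data, gave 0.0386% for BURP-21BaSq. Leaving out C102-M30, also added then, gave 0. Without C102-M1, BURP-21BaSq had 0.602% and BURP-25BaSq 1.5%. Counts summed per line gave 0 genes for the sexes. The causes were not tested.

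Leaving out 1 tumor or line at a time, the genes called ranged from 16.2% (without C80-M3) to 27.5% for BURP-19NE, 12.2% (without C73-M10) to 23.2% for BURP-16SR and 15.5% (without C80-M1) to 29.7% between them. The ranges were 0.979% (without C47-M3) to 4.87% for BURP-12BaSq, 0.254% (without P4) to 1.1% for BURP-17BaSq, 3.31% (without C148-M3) to 11.1% for BURP-18BaSq, 0% to 0.602% for BURP-21BaSq, 0.362% (without C81-M30) to 1.9% for BURP-24BaSq, 0.0422% (without C102-M30) to 1.5% for BURP-25BaSq, and 1.21% (without BURP-24BaSq) to 6.42% (without BURP-17BaSq) for the sexes. The members called ranged from 0 to 1 for BURP-12BaSq and BURP-18BaSq, from 3 to 6 among the 6 lines and from 0 to 2 for the sexes.

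Each change of sign was in a difference that had not passed, and of those only Gata6 between the sexes passed in the other direction, without BURP-18BaSq (adjusted p = 0.0309). Foxa1 in BURP-19NE ranged from -0.149 (without C80-M3) to 0.256 with 1 tumor left out. Gata3 in BURP-16SR turned to 0.076 without C102-M30, 0.174 with all 24 tumors in 1 fit, 0.197 without BURP-25BaSq and 0.168 without C74-MNT, and was lowest at -0.416 without P5. Between BURP-16SR and BURP-19NE, Gata6 turned to -0.141 with total counts without ribosomal RNA genes and -0.00514 without C80-M30 (up to 0.275 without C80-M3), and Tfap2a to 0.0254 without C74-MNT (down to -0.761 without P5). Between the sexes, Gata3 turned to -0.0818 and -0.0989 without BURP-21BaSq and BURP-24BaSq, and reached 1.78 without BURP-25BaSq. Gata6 between the sexes turned to -0.0321 (no filter), -0.183 (total counts without ribosomal RNA genes), -0.0534 (without C102-M30), -0.181 (summed per line), and -1.67, -0.00242 and -0.00653 without BURP-18BaSq, BURP-21BaSq and BURP-25BaSq, and reached 0.536 without BURP-12BaSq. Gata6 in BURP-18BaSq lost its call with no filter (1.69, adjusted p = 0.0523) and with total counts without ribosomal RNA genes (1.49, adjusted p = 0.0579). With 3 tumors a line, each from 1 donor, the precision of every comparison is limited by the number of lines.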
